A study of Canis lupus familiaris with 28 samples.

Results

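Among 29884 dog transcript models counted by RNA sequencing, 100 differed from wild type in cells carrying an shRNA against p190B while differing little in cells carrying an shRNA against p190A. Of these, 47 were raised and 53 were lowered in the p190B line. Members were chosen on L, the base-2 logarithm of the group's mean CPM plus 1, where CPM is a transcript's share of a library's counted reads, scaled to the same total in every library. A member differed from wild type by at least 1 in L in confluent p190B cells and by less than 0.3 in confluent p190A cells. It also differed by at least 0.5 in the same direction in sub-confluent p190B cells. The first of these criteria left 550 transcripts (236 raised and 314 lowered), and the p190A criterion left 109. A further 398 transcripts met both p190B criteria but had a larger p190A difference.

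p190A (ARHGAP35) and p190B (ARHGAP5) are closely related GTPase-activating proteins, a class that speeds the hydrolysis of GTP by its partner proteins. YAP1 is a coactivator that drives transcription by binding TEAD factors and is restrained in dense epithelial cultures by LATS kinases. YAP5SA lacks serines that LATS phosphorylates and is therefore active in dense cells, whereas the added S94A substitution removes TEAD binding. The series asked how p190 proteins act on proliferation at contact and on YAP1-driven transcription.

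All libraries came from TR-T10, a dog cell line with a tetracycline repressor, so that doxycycline switches on the introduced shRNAs and YAP forms. Experiment 1 held 16 libraries, 2 for each of wild type, p190A shRNA, p190B shRNA and both shRNAs, at confluent and at sub-confluent density. Experiment 2, at confluence, held 3 samples each of 4 kinds of cell: wild type, double knockdown, double knockdown that also expressed YAP5SA+S94A, and cells expressing YAP5SA. Samples 1 and 2 of YAP5SA held identical counts and were counted as 1 sample, which left 27 distinct libraries in 12 groups. The labels differ on whether the YAP5SA libraries also carry the shRNAs, so they are called the libraries labelled YAP5SA. Knockdown cells received 4 µg/ml doxycycline for 3 days and were replated for 3 to 5 days, and the labels do not say whether wild-type cells received it. p190A cells were selected in hygromycin and p190B cells in puromycin, and the double-knockdown line was made from the p190B line by adding the p190A shRNA and hygromycin. YAP lines were selected in G418. Loss of p190B and the origin of the puromycin-selected line therefore cannot be told apart in any comparison that sets this line or its descendant against other cells. The labels do not say whether replicates were separate cultures, so p-values measure only how these samples vary among themselves, and that variation may be technical.

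Between 10706716 and 17215544 reads per library fell in a single transcript model, so that 1 read was worth 0.0581 to 0.0934 CPM. The biological coefficient of variation, the relative spread between replicates that edgeR estimates beyond counting error, was 0.128 in experiment 1 and 0.0303 in experiment 2. Replicates of the sub-confluent p190A group lay furthest apart: the median difference in log2(CPM + 1) between them was 0.245 over 11904 transcripts with a mean of at least 1 CPM, and 0.396 over the 100 members. The other groups gave 0.073 to 0.181 and 0.075 to 0.24 (between the extreme libraries where a group had 3). None of the 29884 identifiers matched the 43286 entries of the gene table used here, and the count files do not pair them with gene names. The levels of p190A, p190B and YAP1, epithelial markers and pathway genes were therefore not analysed here, and the knockdowns could not be checked. At most 2 raised and 2 lowered members are named, by identifier.

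The raised members were at low to moderate levels in wild-type cells. Their median group CPM in confluent cells of experiment 1 was 7.99 in wild type, 7.36 with p190A shRNA, 25.9 with p190B shRNA and 25.1 with both. At sub-confluent density the medians were 9.91, 12.3, 34.8 and 21.1 in the same order. The wild-type and p190A medians lay close together, as the rule requires at confluence. The p190B medians were the highest at both densities, which the rule favours because it chose members raised in these libraries. The double-knockdown median was close to that of p190B cells at confluence and lay between wild type and p190B at sub-confluent density. Member by member, L was lower with both shRNAs than with p190B shRNA for 41 of 47 at confluence (median difference -0.74). At sub-confluent density this held for 39 (median difference -0.72). Among the 11904 transcripts with a mean of at least 1 CPM it held for 5876 at confluence and 5448 at sub-confluent density. The p190B libraries in these differences also chose the members, so a shortfall against them carries no test. In experiment 2 the median was 9.1 in wild type, 13.7 with both shRNAs, 9.44 with both shRNAs and YAP5SA+S94A, and 6.29 in the libraries labelled YAP5SA. Levels spread widely within the list: at confluence, 9 of the 47 lay under 1 CPM in wild type and the highest reached 312 CPM.

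The lowered members started from higher levels, and the rule sets a floor for them alone. A fall of 1 in L is not possible from under 1 CPM, and the lowest of them stood at 1.13 in confluent wild-type cells. Raised members had no such limit, and 9 of 47 lay under 1 CPM there. Their median CPM at confluence in experiment 1 was 41.4 in wild type, 35.9 with p190A shRNA, 10.5 with p190B shRNA and 22.4 with both. At sub-confluent density it was 51.9, 39.8, 11.8 and 24.3. The double-knockdown median thus lay between those of the wild-type and p190B cells at both densities. Wild-type and p190B libraries chose the members, so this placing carries no test. In experiment 2 the median was 52.2 in wild type, 25.6 with both shRNAs, 27.1 with YAP5SA+S94A added, and 36.1 in the libraries labelled YAP5SA. In these bulk libraries, fewer cells expressing a transcript and less RNA of it per cell cannot be told apart.

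**Figure D1:**
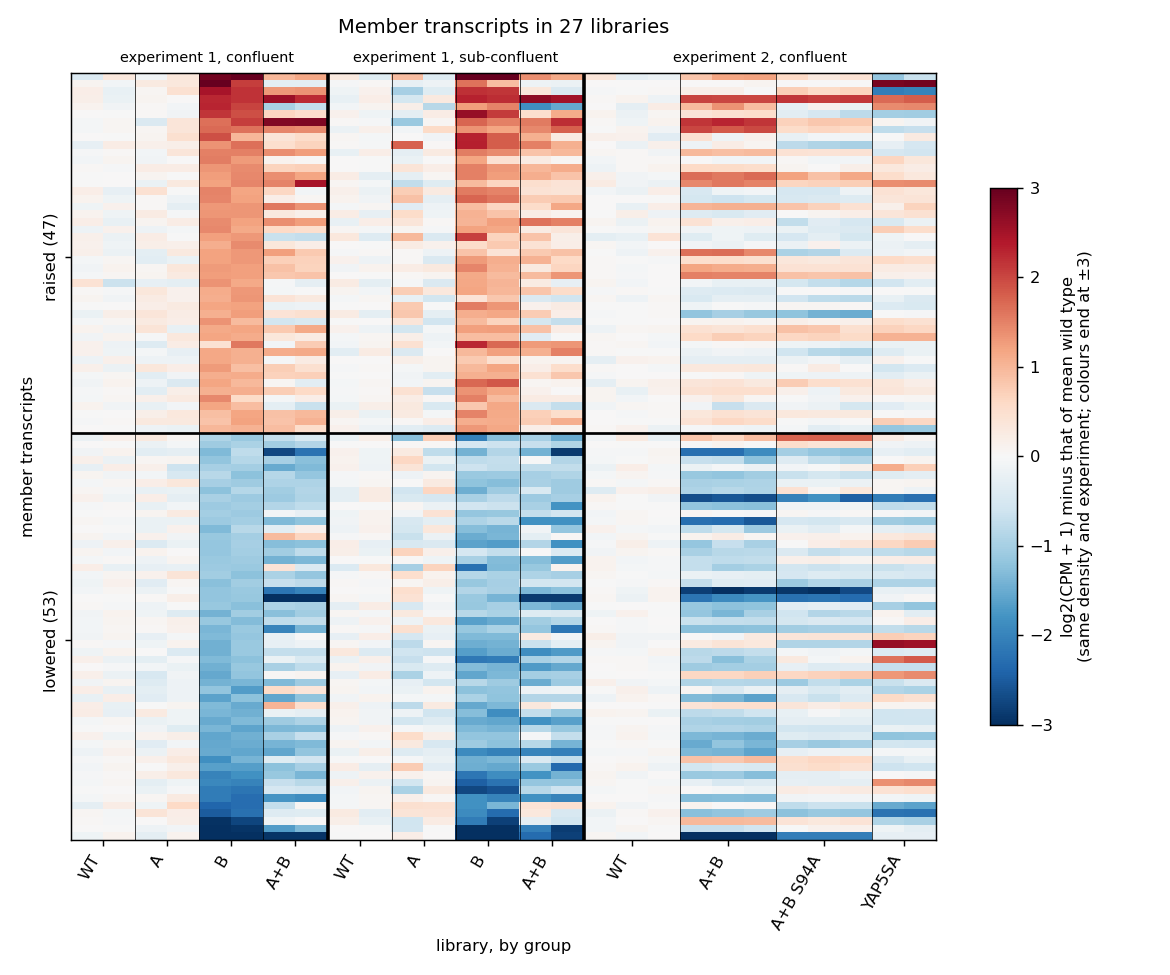
Each row is a member and each column a library, grouped by line, density and experiment; colour gives log2(CPM + 1) minus that of the mean wild type of the same density and experiment. The rule, which works on group means, gives the p190B columns mostly 1 direction in each list and makes the confluent p190A columns pale. Single libraries of a group can still differ in size. In the sub-confluent p190A columns, 25 and 30 of 47 raised and 19 and 34 of 53 lowered members lay within 0.3 of wild type. The double-knockdown columns keep part of the p190B pattern (medians of 38.8% for raised and 70.3% for lowered members at confluence).

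The values that chose the members are a description and carry no test here. The confluent p190B difference in L had a median of 1.25 and a largest value of 3.07 among raised members, and a median of -1.24 and a lowest value of -3.51 among lowered members. At sub-confluent density the medians were 1.25 and -1.33. The raised members closest to the confluent threshold had 1.02 just inside and 0.99 just outside it, and the lowered ones had sizes of 1.01 and 0.98. For the p190A difference, the nearest sizes inside and outside were 0.298 and 0.318 for raised members, and 0.299 and 0.303 for lowered members. For the sub-confluent difference they were 0.62 and 0.49 (raised), and 0.56 and 0.37 (lowered). With edgeR's quasi-likelihood test at an adjusted p under 0.05, 46 of 47 raised members were called higher with p190B shRNA at confluence, where 7.04% of all transcripts tested were. Of the lowered members, 46 of 53 were called lower, where 5.64% were. At sub-confluent density 44 raised members were called higher, against 8.8% of all, and 50 lowered members were called lower, against 9.23%. These counts follow from the rule. All 100 members passed the filter on low counts in experiment 1, but a raised member could pass through its p190B libraries alone.

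Membership depended on single libraries. When each of the 10 libraries that the rule uses was left out in turn, the raised list held 41 to 61 transcripts and the lowered list 44 to 63. Only 15 of the 47 raised and 21 of the 53 lowered members were chosen in all 10 of these repeats.

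Sub-confluent p190A cells were outside the rule, although they are compared here with wild-type libraries that the rule used. The p190A difference in L lay within 0.3 for 34 of 47 raised members (72.3%) and 34 of 53 lowered members (64.2%). Among the 11904 transcripts with a mean of at least 1 CPM the share was 69.1%. With the first p190A library alone these counts were 25 and 19, and with the second alone 30 and 34. The edgeR test called 1 raised member higher and 3 lowered members lower, where 4.66% and 5.17% of all transcripts tested were called in those directions. Raised members that could pass the filter through p190B libraries alone were not set apart here.

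With both shRNAs present, members kept part of their p190B difference, and the lowered members kept more of it. At confluence the difference between double-knockdown and wild-type cells in L was 38.8% of the p190B difference at the median of the raised members, and 70.3% at the median of the lowered members. At sub-confluent density the medians were 37% and 73.9%. Among raised members at confluence, 9 had a double-knockdown difference opposite to the p190B difference and 6 had a double-knockdown difference at least as large as it. Among lowered members these numbers were 5 and 9. The denominators of these shares were chosen to be large, and both differences use the same wild-type libraries, so the shares carry no test. In the edgeR fit, 23 of 47 raised members were called higher with both shRNAs than in confluent wild-type cells, where 21.9% of all transcripts were. Of the lowered members, 37 of 53 were called lower, where 21.6% were. Against p190B cells, 30 raised members were called lower in double-knockdown cells, where 17.5% of all transcripts were, and 24 lowered members were called higher, where 16.6% were. These p190B and wild-type libraries also chose the members.

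A comparison that used none of the libraries behind the rule set double-knockdown against p190A cells at sub-confluent density, and so asked what the p190B shRNA line adds in the presence of the p190A shRNA. Raised members were called higher in 20 of 47 cases (42.6%), where 8.65% of the 12845 transcripts tested were. For 12 of them the change was at least 2-fold, where 2.51% of all transcripts were. Their median log2 fold change was 0.62, with the middle members between 0.11 and 1.06 (lower to upper quartile), against -0.00 for all transcripts tested. The direction was not uniform: 38 of 47 had a positive value and 1 member was called lower. The 47 include raised members that could pass the filter on low counts through their p190B libraries alone, and these were not set apart. Under 1 CPM lay 9 raised members in p190A cells at this density and 8 in double-knockdown cells. Lowered members were called lower in 35 of 53 cases (66.0%), where 11.8% of all transcripts were. For 27 of these the change was at least 2-fold, where 3.72% of all transcripts were. Their median was -1.10 (quartiles -1.5 and -0.69), and 50 of 53 had a negative value. The median differences in L, which need no fitted value for libraries near 0, were 0.36 and -0.88.

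These counts rest on a spread estimated over all 16 libraries of experiment 1. In a fit of the 4 libraries compared alone, 2 of 41 raised and 16 of 51 lowered members passed, and the count over all transcripts dropped from 2621 to 217. With single libraries left out, which leaves 1 in a group, fewer raised members were called. The number of lowered members called moved in both directions, and so did the count over all transcripts.

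**Figure D2:**
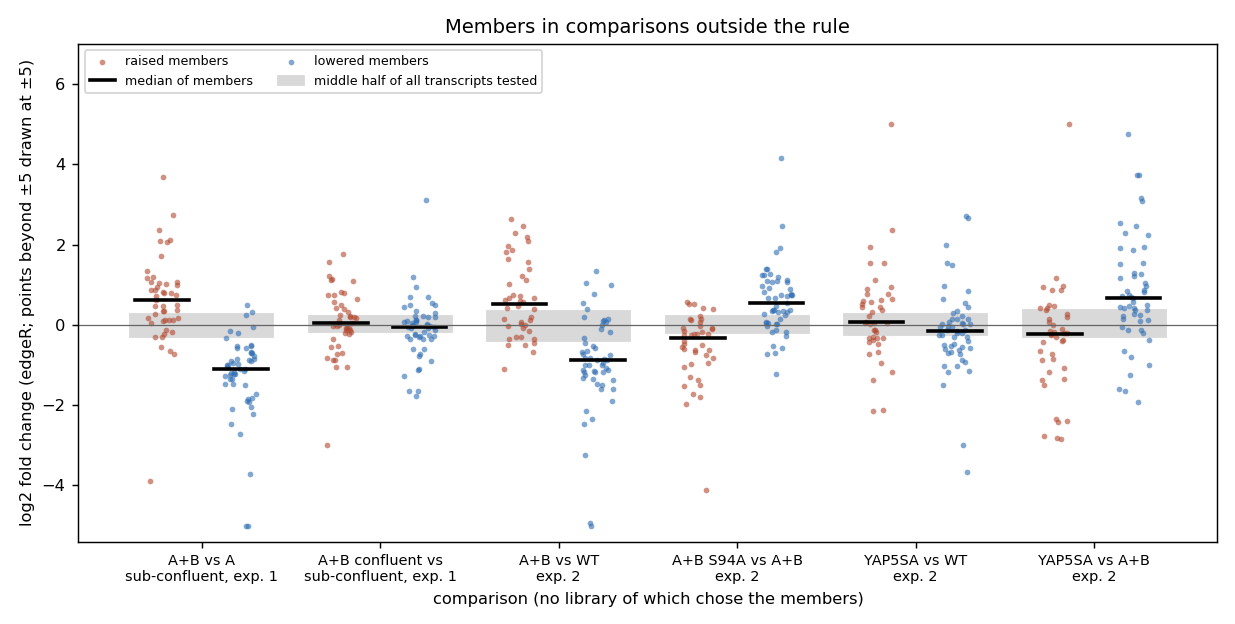
Each point is a member's log2 fold change in 1 of 6 comparisons made with libraries that the rule did not use; black lines are medians and grey boxes span the lower to the upper quartile of all transcripts tested. Medians of raised and lowered members separate in the double-knockdown comparisons (0.62 and -1.10 against p190A cells, 0.52 and -0.89 against wild type in experiment 2) and lie near 0 between densities.

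Experiment 2 measured the same kind of double-knockdown cell again with wild-type libraries of its own. Here 42 of the 47 raised and all 53 lowered members passed the filter, among 13061 transcripts tested. The other 5 raised members did not have enough reads in enough of the 11 libraries. Raised members were called higher in 25 of 42 cases (59.5%), where 35.2% of all transcripts were, and 4 were called lower. Because experiment 2 called 70.3% of all transcripts in either direction, the 2-fold counts separate the members more clearly. At least 2-fold higher were 13 of 42 raised members (31.0%), where 4.87% of all transcripts were. Lowered members were called lower in 39 of 53 cases (73.6%), where 35.1% of all were, and at least 2-fold lower in 22 (41.5%), where 8.44% were. A further 8 lowered members were called higher. Median log2 fold changes were 0.52 for raised members, -0.89 for lowered members and 0.00 for all transcripts tested.

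The double-knockdown comparisons of both experiments share no library, although both contain the double-knockdown line and differ in density and in the reference cells. Both tests covered 42 raised members, and 16 of them passed as higher each time, where 5.9% of the 12552 transcripts covered by both tests did. Of the 53 lowered members, 31 passed as lower each time, where 7.9% did. Another 4 raised and 3 lowered members were called in the member's direction only in experiment 1 and not called in experiment 2, and 8 of each list only in experiment 2. In experiment 2, 4 raised and 7 lowered members not called in experiment 1 were called against their direction. The experiments called 1 lowered and 1 raised member in opposite directions. Shares over all transcripts were not computed for calls in 1 experiment only or against direction. Experiment 2 called 70.3% of all transcripts, so nothing is read from those counts. As a description across members, which are not independent replicates, Pearson's r between both log2 fold changes was 0.399 and Spearman's rank correlation 0.56 over 42 raised members. Over 53 lowered members they were 0.441 and 0.572, and over all 12552 transcripts 0.394 and 0.369. The points within a comparison share its libraries.

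**Figure D3:**
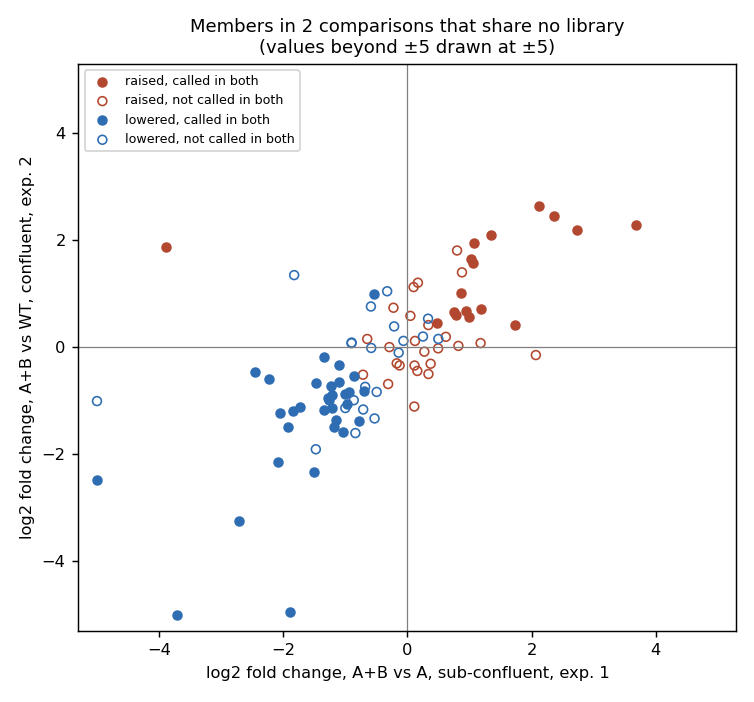
Each point is a member placed by its log2 fold change between double-knockdown and p190A cells in experiment 1 (horizontal) and between double-knockdown and wild-type cells in experiment 2 (vertical); filled points were called in both, in either direction. Of the filled points, 16 raised members lie in the upper right and 31 lowered members in the lower left, and 1 of each list lies elsewhere.

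The raised member with the largest difference at both densities was ENSCAFT00000002128. At confluence it stood at 17.0 and 29.0 CPM in wild type, 21.2 and 29.4 with p190A shRNA, 176 and 225 with p190B shRNA, and 46.5 and 52.2 with both. At sub-confluent density the values were 11.1 and 6.74, 18.0 and 6.61, 201 and 92.9, and 25.3 and 20.9 in the same order. The p190B libraries were the highest at each density, and the double-knockdown libraries lay between them and all wild-type and p190A libraries. Between double-knockdown and p190A cells at sub-confluent density the log2 fold change was 0.88 (SE 0.43, adjusted p = 0.16), which did not pass. It was 0.33 without the second p190A library and 1.75 without the first. The change also passed with a replicate block within density, as given in the last section. Experiment 2 gave far lower levels: 3.5, 1.90 and 2.09 CPM in wild type, 5.24, 6.98 and 7.11 with both shRNAs, 4.30, 3.29 and 3.73 with YAP5SA+S94A added, and 0.563 and 1.21 in the libraries labelled YAP5SA. Double-knockdown libraries did not overlap the wild-type ones there (log2 fold change 1.4, SE 0.18, adjusted p = 3.8e-09). The libraries labelled YAP5SA, with 7 and 19 reads, were the lowest, at -1.37 on the log2 scale against wild type (SE 0.33, adjusted p = 0.00044). That value was -0.999 with the first of them left out and -2.07 with the other left out.

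ENSCAFT00000005304 was named for its changes in both double-knockdown comparisons: among eligible raised members called higher in both, the smaller of its log2 fold changes was the largest. Other raised members changed more in a single comparison. Being called in both was required for this choice, so the p-values of ENSCAFT00000005304 there only describe it. At confluence its CPM was 6.07 and 6.6 in wild type, 4.43 and 8.38 with p190A shRNA, 21.9 and 29.9 with p190B shRNA, and 49.0 and 49.9 with both. At sub-confluent density it was 18.9 and 17.8, 7.98 and 19.1, 64.2 and 54.4, and 55.9 and 88.1. Unlike the list's median, it was higher with both shRNAs than with p190B shRNA alone at confluence, without overlap, while at sub-confluent density those libraries overlapped. In experiment 2 wild type gave 5.29, 4.63 and 5.59 CPM, both shRNAs 26.2, 29.2 and 26.4, YAP5SA+S94A 8.94, 9.81 and 9.58, and the libraries labelled YAP5SA 5.55 and 4.72. The log2 fold change of the double knockdown was 2.37 against p190A cells (SE 0.34, adjusted p = 0.00037, and 0.056 in the fit of those groups alone; 3.15 without the second p190A library) and 2.46 against wild type in experiment 2 (SE 0.10, adjusted p = 7.1e-31). The libraries labelled YAP5SA overlapped wild type, differing by 0.06 on the log2 scale (SE 0.16, adjusted p = 0.78).

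The lowered member with the largest difference at both densities, ENSCAFT00000020882, gave the steadiest pattern of the 4 named. At confluence it had 264 and 311 CPM in wild type, 233 and 311 with p190A shRNA, 23.9 and 24.7 with p190B shRNA, and 36.4 and 36.5 with both. At sub-confluent density it had 254 and 254, 291 and 255, 22.3 and 23.0, and 50.2 and 35.7. Every library with the p190B shRNA lay below every library without it in experiment 1. In experiment 2 wild type gave 253, 231 and 246 CPM, both shRNAs 23.2, 26.3 and 24.5, YAP5SA+S94A 57.1, 56.9 and 56.8, and the libraries labelled YAP5SA 205 and 206. Against p190A cells the double knockdown stood at -2.71 on the log2 scale (SE 0.16, adjusted p = 3e-07), and against wild type in experiment 2 at -3.24 (SE 0.05, adjusted p = 1.2e-52). With YAP5SA+S94A added the level was higher than in double-knockdown cells by 1.23 (SE 0.06, adjusted p = 3.3e-27), still far below wild type. The libraries labelled YAP5SA were near wild type, with a difference of -0.16 on the log2 scale (SE 0.04, adjusted p = 0.00043).

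ENSCAFT00000030230 was named in the same way among eligible lowered members, after ENSCAFT00000020882 had been passed over. Besides that transcript, some lowered members that were not eligible changed more in both comparisons. Being called in both was again required, so the p-values of ENSCAFT00000030230 there only describe it. At confluence it had 41.2 and 47.4 CPM in wild type, 35.5 and 36.8 with p190A shRNA, 17.1 and 25.8 with p190B shRNA, and 5.84 and 8.77 with both. At sub-confluent density it had 25.4 and 21.1, 28.3 and 13.4, 7.99 and 12.2, and 8.04 and 2.32. It was lowest with both shRNAs at confluence, and at sub-confluent density the double-knockdown and p190B libraries overlapped. In experiment 2 wild type gave 51.5, 51.1 and 55.6 CPM, both shRNAs 10.2, 10.1 and 13.5, YAP5SA+S94A 25.4, 23.2 and 21.9, and the libraries labelled YAP5SA 44.6 and 42.0. The double knockdown lay at -2.09 on the log2 scale against p190A cells (SE 0.44, adjusted p = 0.0046) and at -2.15 against wild type in experiment 2 (SE 0.08, adjusted p = 3e-31). The first of these was -3.17 without the first double-knockdown library and -1.42 without the second. It no longer passed in the fit of those groups alone (adjusted p = 0.13), without the first p190A library (0.085) or without the second double-knockdown library (0.056).

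**Figure D4:**
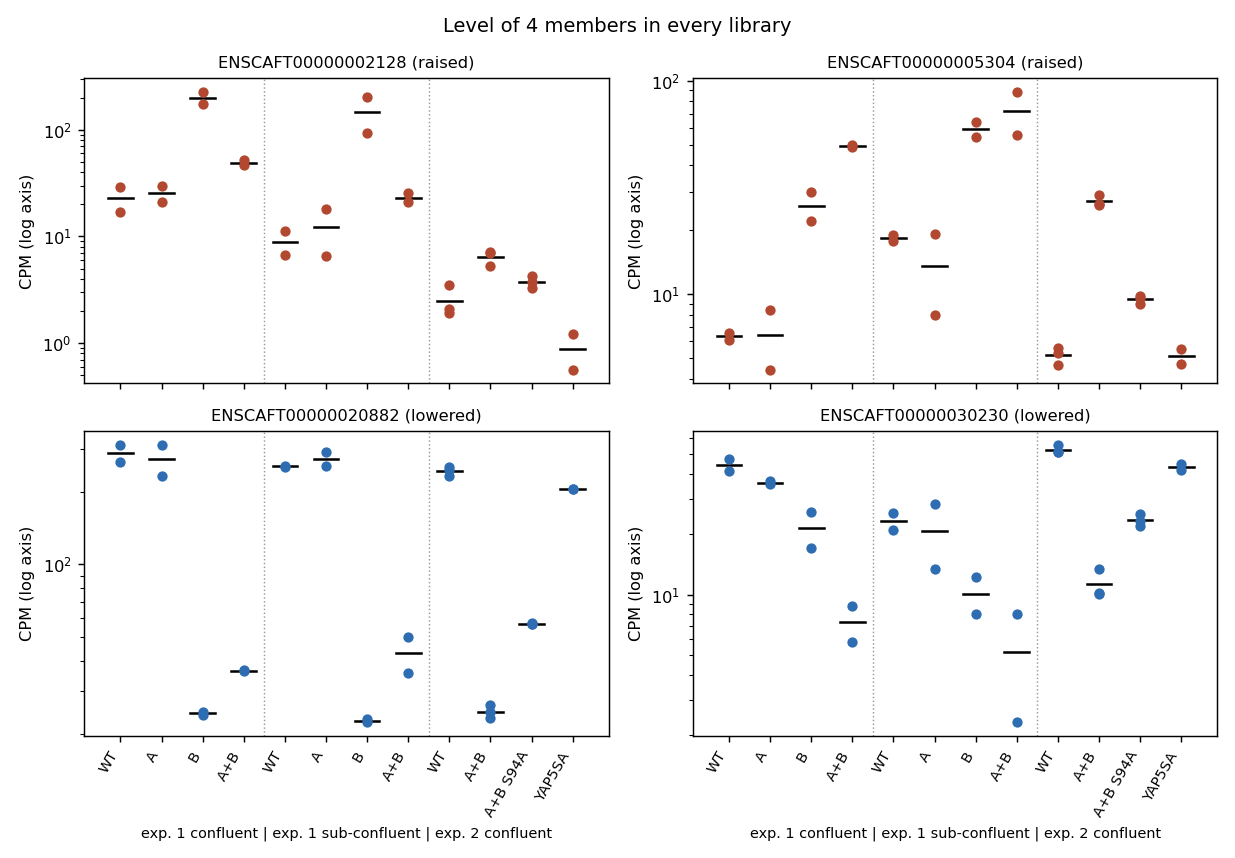
Points give the CPM of each library (log axis) and black bars the group mean for the 4 named members, over 4 confluent and 4 sub-confluent groups of experiment 1 and the 4 groups of experiment 2. ENSCAFT00000020882 sits between 22.3 and 50.2 CPM in every library of experiment 1 with the p190B shRNA and at 233 or more in every other library of that experiment.

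Adding YAP5SA+S94A to double-knockdown cells asked what a YAP form unable to bind TEAD does in them. The raised members were called lower with it in 22 of 42 cases (52.4%), where 25.4% of all transcripts tested were, and 6 were called higher. At least 2-fold lower were 8 (19.0%), where 1.89% of all were. The lowered members were called higher in 35 of 53 cases (66.0%), where 25.9% of all were, and 7 were called lower. At least 2-fold higher were 14 (26.4%), where 2.6% of all were. A lowered list chosen with the p190A and p190B lines exchanged, described below, gave 66.7% called higher and 15.8% at least 2-fold higher. Median log2 fold changes were -0.33 for raised and 0.54 for lowered members, against -0.01 for all transcripts. ENSCAFT00000005304 fell by 1.5 (SE 0.09, adjusted p = 9.1e-23), ENSCAFT00000002128 fell by 0.74 (SE 0.17, adjusted p = 0.00019), and ENSCAFT00000030230 rose by 1.08 (SE 0.09, adjusted p = 1.7e-15). Set against wild type, the same libraries had medians of 0.16 for raised and -0.20 for lowered members. There, 21 of 42 raised members were called higher, where 29.1% of all transcripts were, and 9 lower, where 27.2% were. Of the lowered members, 29 of 53 were called lower and 14 (26.4%) higher. These comparisons share libraries with those of the double knockdown and wild type in experiment 2, so their values stand side by side only. The G418 selection of the YAP5SA+S94A line cannot be told apart from the YAP form.

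In the libraries labelled YAP5SA, both lists lay close to wild type at the median, but single members spread widely in both directions. The difference in L from wild type was at least 1 in size for 17% of raised and 18.9% of lowered members. Of these, 5 raised members were higher and 3 lower, and 4 lowered members were higher and 6 lower. Among the 11904 transcripts with a mean of at least 1 CPM the share was 4.18%. Against wild type, raised members were called higher in 19 of 42 cases (45.2%), where 29.7% of all transcripts were, and lower in 10 (23.8%), where 26.9% were. Lowered members were called lower in 26 of 53 cases (49.1%) and higher in 14 (26.4%). The medians were 0.07 and -0.16. Against the double knockdown, 21 raised members were called lower (50%), where 31.3% of all were, and 11 were called higher. Of the lowered members, 38 were called higher (71.7%), where 32.3% of all were, and 10 were called lower, with medians of -0.22 and 0.68. With 2 distinct libraries, this group was the thinnest of experiment 2.

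Between confluent and sub-confluent double-knockdown libraries the edgeR test called 3 of 47 raised and 3 of 53 lowered members, where 1.81% of all transcripts were called in either direction. Of the raised members 1 was called higher and 2 lower at confluence, where 0.911% and 0.895% of all were. The 3 lowered members were all at least 2-fold lower, where 0.374% of all were. Median log2 fold changes were 0.04 and -0.06. Raised members that could pass the filter through p190B libraries alone were kept in these counts and medians. In L, the difference between densities lay within 0.3 for 51.1% of raised and 56.6% of lowered members, against 73.5% of the 11904 transcripts with a mean of at least 1 CPM, and it exceeded 1 for 4.26% and 7.55%, against 1.48%. The edgeR counts dropped to 0 in both lists without either confluent double-knockdown library, where 9 and 10 raised and 14 and 7 lowered members had an unadjusted p under 0.05. Without the first sub-confluent double-knockdown library they were 1 raised and 5 lowered, and without the second p190A library 8 and 6. With all libraries, DESeq2 called 4 raised and 5 lowered members and limma-voom 2 and 3. In wild-type cells, whose libraries the rule used, 20 of 53 lowered members were called lower at confluence than at sub-confluent density, where 15% of all transcripts were. Of the raised members, 8 were called higher at confluence, where 14.3% of all were, and 6 lower.

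Applying the rule with the p190A and p190B lines exchanged gave 85 transcripts, 28 raised and 57 lowered with p190A shRNA only. The corresponding comparison outside that rule set double-knockdown against p190B cells at sub-confluent density. It called 44 of 57 lowered transcripts lower, where 16.3% of all were, and 10 of 28 raised transcripts higher, where 15.3% were. In both rules, then, more of the lowered than of the raised transcripts were called in the direction of the single knockdown, a difference between lists that was not tested. The p190B lists also differed in level, where the rule sets a floor for lowered members only, and this was not accounted for. In sub-confluent p190A cells the median was 12.3 CPM for raised and 39.8 for lowered members, with 9 and 2 members under 1 CPM. In experiment 2, 87.7% of the exchanged rule's lowered transcripts were called lower with both shRNAs than in wild type (members 73.6%). Of its raised transcripts, 60% were called higher (members 59.5%). Against the double knockdown, 82.5% of its lowered transcripts were called higher in the libraries labelled YAP5SA (members 71.7%), and 66.7% with YAP5SA+S94A (members 66.0%). Of its raised transcripts, 52% (members 50%) and 28% (members 52.4%) were called lower there. Of its 28 raised transcripts, 25 were tested in experiment 2. At least 2-fold lower with YAP5SA+S94A were 3 of these (12%) and 8 of 42 members (19.0%), where 1.89% of all were. Whether the lists differ in the 28% against 52.4% was not tested. The other counts were not particular to the p190B members.

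Wild-type levels in both experiments lay within 1 in L of each other for most members. Confluent wild-type cells of experiment 2 differed from those of experiment 1 by more than 1 in L for 3 of 47 raised members (6.38%) and 5 of 53 lowered members (9.43%). Among the 11904 transcripts with a mean of at least 1 CPM the share was 5.42%. Among the raised members was ENSCAFT00000002128, whose wild-type mean was 23.0 CPM (SD 8.48, n = 2) in experiment 1 and 2.49 (SD 0.877, n = 3) in experiment 2.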

How the data were processed

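RNA from TR-T10 cells was sequenced as single reads from poly(A) libraries, per the labels' protocols. The deposited values are whole-number counts of reads per transcript model, made by the authors. STAR 2.3.1n, HTSeq 0.6.0, DESeq2 1.4.5 and the build CanFam3.1 are named in the submitters' processing notes, without their roles. The sources used here do not say whether strand was used in counting. Of uniquely aligned reads, 20.3 to 23.1% per library were ambiguous between models and 21.2 to 23.8% lay outside them. Such summary lines entered neither library totals nor tests, so transcripts that overlap others or have several models are measured from part of their reads.

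CPM used the sum over transcripts. Members and lists were chosen with earlier results of these data known. Counts were tested per experiment over all groups with edgeR 4.0.16 (R 4.3.3) quasi-likelihood tests, filterByExpr and TMM scaling, with Benjamini-Hochberg adjustment over all transcripts tested. "Called" means an adjusted p under 0.05. The scripts were tested on simulated counts.

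Transcripts were named by rule among members with a mean of at least 8 CPM in experiment 1 and p190B libraries outside both wild-type libraries at each density. In each direction, 1 was the member with the largest smaller difference in L of both densities. The other was, among members called in their direction in both double-knockdown comparisons, the one with the largest smaller log2 fold change there. Alternatives were DESeq2 1.42.0, limma-voom (limma 3.58.1), DESeq2 size factors, no filter, a fit of only the groups compared, a replicate block, each library left out, and, chosen after seeing the data, YAP5SA libraries left out. The lists of YAP target, epithelial and mesenchymal genes could not be matched and were not run, and no sequence was used.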

Additional observations from a re-analysis of the deposited data

How the results depend on the processing

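In a fit of only the 4 libraries compared, double knockdown against p190A cells gave 2 raised members in place of 20 and 16 lowered members in place of 35. The density counts of 3 and 3 became 5 lowered members by DESeq2, and 12 raised and 11 lowered without the filter. With single libraries left out, density counts ranged from 0 to 8 (raised) and 0 to 6 (lowered). The edgeR counts of 0 came without either confluent double-knockdown library, and for raised members also without the second sub-confluent one; 9, 10 and 12 raised and 14 and 7 lowered members then had an unadjusted p under 0.05, and on all libraries DESeq2 called 4 raised members and limma-voom 2 raised and 3 lowered. Without the second sub-confluent p190A library they were 8 and 6. Double knockdown against p190A cells gave 15 to 17 raised and 25 to 37 lowered members. In experiment 2 the ranges were 24 to 25 and 39 to 39 against wild type, 19 to 24 and 34 to 35 with YAP5SA+S94A, and, for the libraries labelled YAP5SA, 17 to 19 and 24 to 27 against wild type and 18 to 21 and 36 to 38 against the double knockdown. Where this left a group with 1 library, it was assumed to vary like the other groups.

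Over all transcripts, the 232 density calls became 516 by DESeq2, 1146 without the filter, 97 in the fit of only those groups, 10 and 4 without the first and second confluent double-knockdown library, 55 without the second sub-confluent one and 742 without the second p190A one. The 2621 calls between double-knockdown and p190A cells became 217 in the fit of only those groups. With single libraries left out they moved in both directions. The causes were not tested.

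Same-numbered libraries of experiment 1 deviated together within a density (r from 0.142 to 0.537). With 2 numbers per group and no label saying what a number stands for, what such libraries share is not known, and the main fit does not model it. With a replicate block within density, double knockdown against p190A cells gave 23 raised and 42 lowered members and 4062 transcripts, and ENSCAFT00000002128 then passed (log2 fold change 1.00, adjusted p = 0.014). A replicate block left the density counts at 3 and 3, with 354 transcripts in place of 232. In experiment 2, where same-lettered libraries did not deviate together (r from -0.0363 to 0.0379), the block gave 25 raised and 39 lowered members against wild type and 22 and 35 with YAP5SA+S94A, with the YAP5SA libraries left out.

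Of the named members, ENSCAFT00000005304 changed sign between YAP5SA and wild type, where it was not called, to -0.03 without the second wild-type library and -0.07 without the first YAP5SA library (range to 0.19). ENSCAFT00000030230 changed sign between densities, also not called, from 0.55 to -0.12 without the second sub-confluent double-knockdown library (1.62 without the first), and lost its YAP5SA call against wild type without the third YAP5SA library (adjusted p = 0.16). Choosing members on TMM-scaled CPM gave 47 raised and 45 lowered, and a pseudocount of 0.5 gave 57 and 64. Low depth limits the 9 raised members under 1 CPM in confluent wild-type cells.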
